A study of Mus musculus with 9 samples.

Results

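Prostaglandins and leukotrienes are lipid mediators made from arachidonic acid, and 10 genes of their synthesis, breakdown and signalling in mouse peritoneal macrophages are described here. They were taken by symbol from a table of 55335 genes and are the cyclooxygenase genes Ptgs1 and Ptgs2, the terminal synthase genes Ptges and Hpgds, the reductase gene Ptgr1, the prostaglandin E2 receptor genes Ptger2 and Ptger4, and the leukotriene genes Alox5, Alox5ap and Ltc4s. Each symbol had a single entry.

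Bulk RNA-seq of 9 libraries labelled peritoneal macrophages, the phagocytes resident in the abdominal cavity, gave the level of each gene. All cells were kept for 1 h in RPMI medium. They were then exposed for 4 h to 1 µg/mL lipopolysaccharide (LPS), a component of bacterial outer membranes that TLR4 detects. The LPS+CPZ group was also given 100 µM of CPZ, an abbreviation the labels do not spell out, the LPS+EtOH group also received 5% ethanol, and the LPS group received LPS alone. Each group had 3 libraries, and 3 RNA samples were combined in each library. The labels give no strain, age or genotype, and do not say whether the pooled samples came from separate animals, so the p-values reflect variation among pools and nothing beyond it. Unstimulated cells, either agent on its own and the vehicle of CPZ were not analysed here, so every comparison is between LPS-treated groups. The comparisons with LPS share the same 3 LPS libraries, and the comparison of LPS+CPZ with LPS+EtOH shares its libraries with both.

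As background, phospholipases free arachidonic acid from membranes, and the cyclooxygenases PTGS1 and PTGS2 turn it into prostaglandin H2. Terminal synthases convert that intermediate into prostaglandin E2 (microsomal synthase PTGES), prostaglandin D2 (HPGDS) and other prostanoids, which act on G protein-coupled receptors. In a separate branch ALOX5, helped by the membrane protein ALOX5AP, makes leukotriene A4, which LTA4H converts to leukotriene B4 and LTC4S conjugates with glutathione to leukotriene C4. Macrophages exposed to LPS are known for inducing PTGS2 and PTGES and releasing prostaglandin E2.

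Values are FPKM, fragments scaled to transcript length and to the mapped fragments of the library, as the authors deposited them, and so compare levels per length. Tests are limma fits on log2(FPKM + 1) over the 11721 genes that reached 1 FPKM in 3 or more libraries, with Benjamini-Hochberg adjustment over all of them and a threshold of 0.05. On this scale the change of a weakly expressed gene is understated. Most genes passed this test and the calls leaned to 1 direction in each comparison, as the median gene changed by -0.33 in LPS+CPZ against LPS, -0.82 in LPS+EtOH against LPS and 0.55 in LPS+CPZ against LPS+EtOH. A scaling of each library by the median ratio of its genes brought these medians to -0.08, -0.08 and 0.08, and its values are given where they change a call of the 9 tested genes.

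The libraries differed in the transcripts of other cell types. Adult globin genes took 0.0452 to 0.0972% of all FPKM in LPS+CPZ, 0.172 to 0.221% in LPS+EtOH and 11.5 to 29.4% in LPS libraries. From 10135 to 10625 genes reached 1 FPKM in LPS+CPZ, 8024 to 8366 in LPS+EtOH and 11096 to 11266 in LPS. The 14 neutrophil markers, all detected in every group, summed to 7616 to 8402 FPKM in LPS+CPZ, 47230 to 52050 FPKM in LPS+EtOH and 4529 to 6323 FPKM in LPS. S100a8 and S100a9 made up most of that sum, and 12 of the 14 were highest in LPS+EtOH on average. Ly6g, a defining marker, was instead highest in LPS+CPZ, averaging 274 FPKM in LPS+CPZ, 156 FPKM in LPS+EtOH and 16.9 FPKM in LPS. The 10 general macrophage markers summed to 1417 to 1668 FPKM in LPS+CPZ, 3100 to 3359 FPKM in LPS+EtOH and 1682 to 2167 FPKM in LPS. Without Cd14, left out after its values were seen, the sums overlapped, at 992 to 1277 FPKM in LPS+CPZ, 1001 to 1176 FPKM in LPS+EtOH and 939 to 1137 FPKM in LPS. Single macrophage markers differed in direction. Adgre1, which encodes F4/80, averaged 88.5 FPKM in LPS+CPZ, 89.0 FPKM in LPS+EtOH and 141 FPKM in LPS, and Cd68 averaged 405 FPKM in LPS+CPZ, 363 FPKM in LPS+EtOH and 55.5 FPKM in LPS. Gata6, the defining factor of large peritoneal macrophages, reached at most 0.457 FPKM in any library. Lymphocyte markers were lowest in LPS+EtOH: the 11 B cell markers summed to 1210 to 1431 FPKM in LPS+CPZ, 146 to 200 FPKM in LPS+EtOH and 1499 to 2153 FPKM in LPS, and the 13 T and NK cell markers to 14.9 to 28.7 FPKM in LPS+CPZ, 1.39 to 2.78 FPKM in LPS+EtOH (with Klrb1c at 0 in all 3 libraries) and 70.2 to 92.6 FPKM in LPS. In bulk samples fewer cells of a type and less RNA per cell cannot be told apart, and the part of these markers in the results below was not tested.

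**Figure D1:**
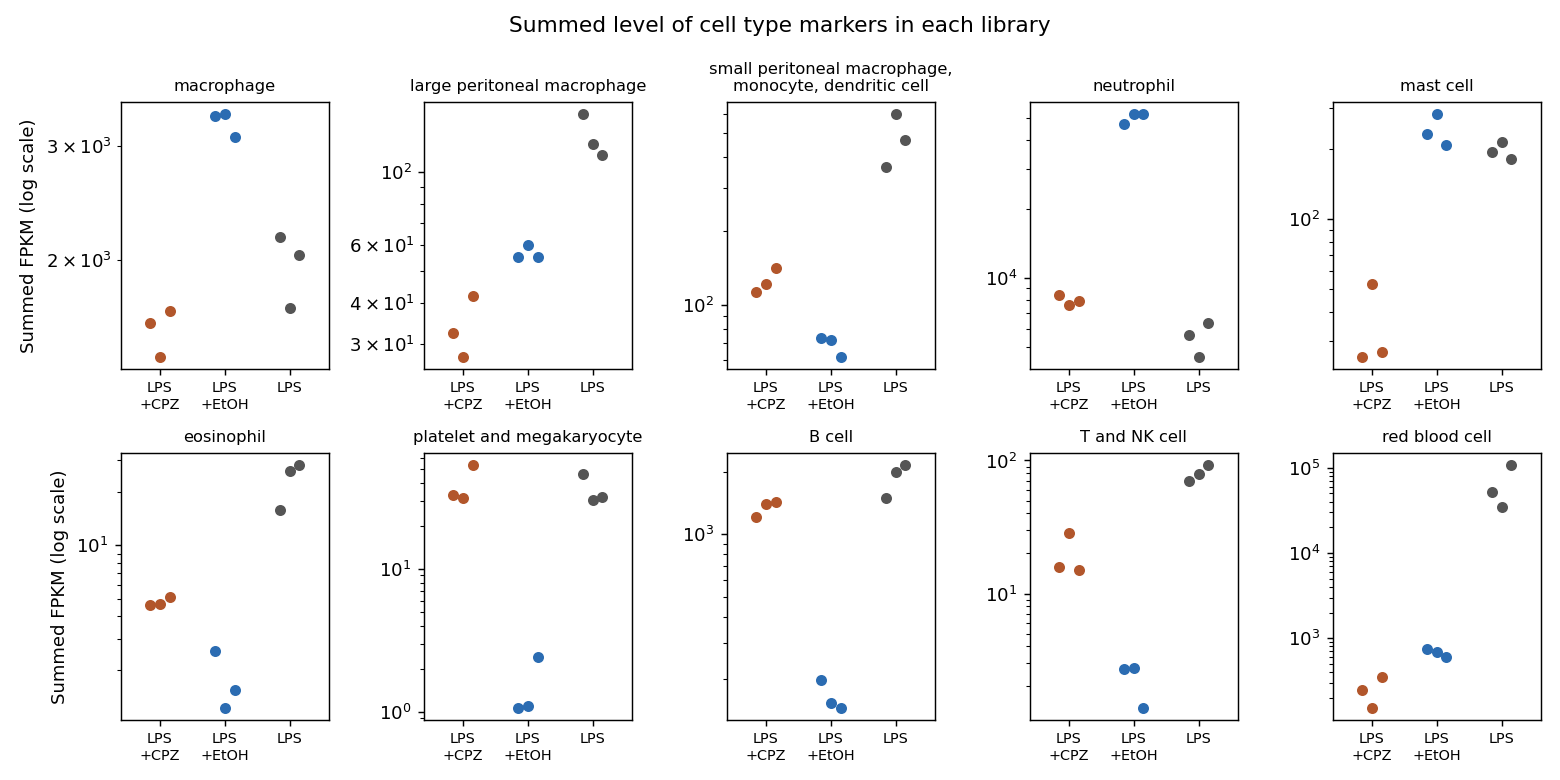
Summed FPKM of the marker genes of each cell type in every library, on a log axis, for LPS+CPZ, LPS+EtOH and LPS. The red blood cell sum lies between 153 and 349 FPKM in LPS+CPZ, between 608 and 747 FPKM in LPS+EtOH and between 34790 and 107500 FPKM in LPS, and the neutrophil sum is highest in LPS+EtOH.

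Of the 10 genes, 9 passed the filter on low values and Ltc4s did not. In LPS+CPZ against LPS, 4 genes were higher and 4 lower, where 69.2% of all genes tested were called (20.7% higher and 48.4% lower). In LPS+EtOH against LPS, 4 genes were higher and 4 lower, where 83.6% of all genes were called (19.0% higher and 64.6% lower). In LPS+CPZ against LPS+EtOH, 5 genes were higher and 4 lower, where 76.6% of all genes were called (61.4% higher and 15.2% lower). With so many genes called, the number of called members sets nothing apart, and the description below rests on which genes moved, how far and in which direction. Under median-ratio scaling 4 were higher and 4 lower in LPS+CPZ against LPS, where 61.7% of all genes were called (27.6% higher and 34.1% lower). It gave 5 higher and 2 lower in LPS+EtOH against LPS (80.0% of all genes, 37.8% higher and 42.1% lower). In LPS+CPZ against LPS+EtOH it gave 4 higher and 4 lower (67.0% of all genes, 35.6% higher and 31.5% lower). The libraries of the groups did not overlap for 8 of the 9 in LPS+CPZ against LPS, where this held for 72.9% of all genes tested. It held for 8 of the 9 in LPS+EtOH against LPS (84.8% of all genes) and for all 9 in LPS+CPZ against LPS+EtOH (79.0% of all genes).

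**Figure D2:**
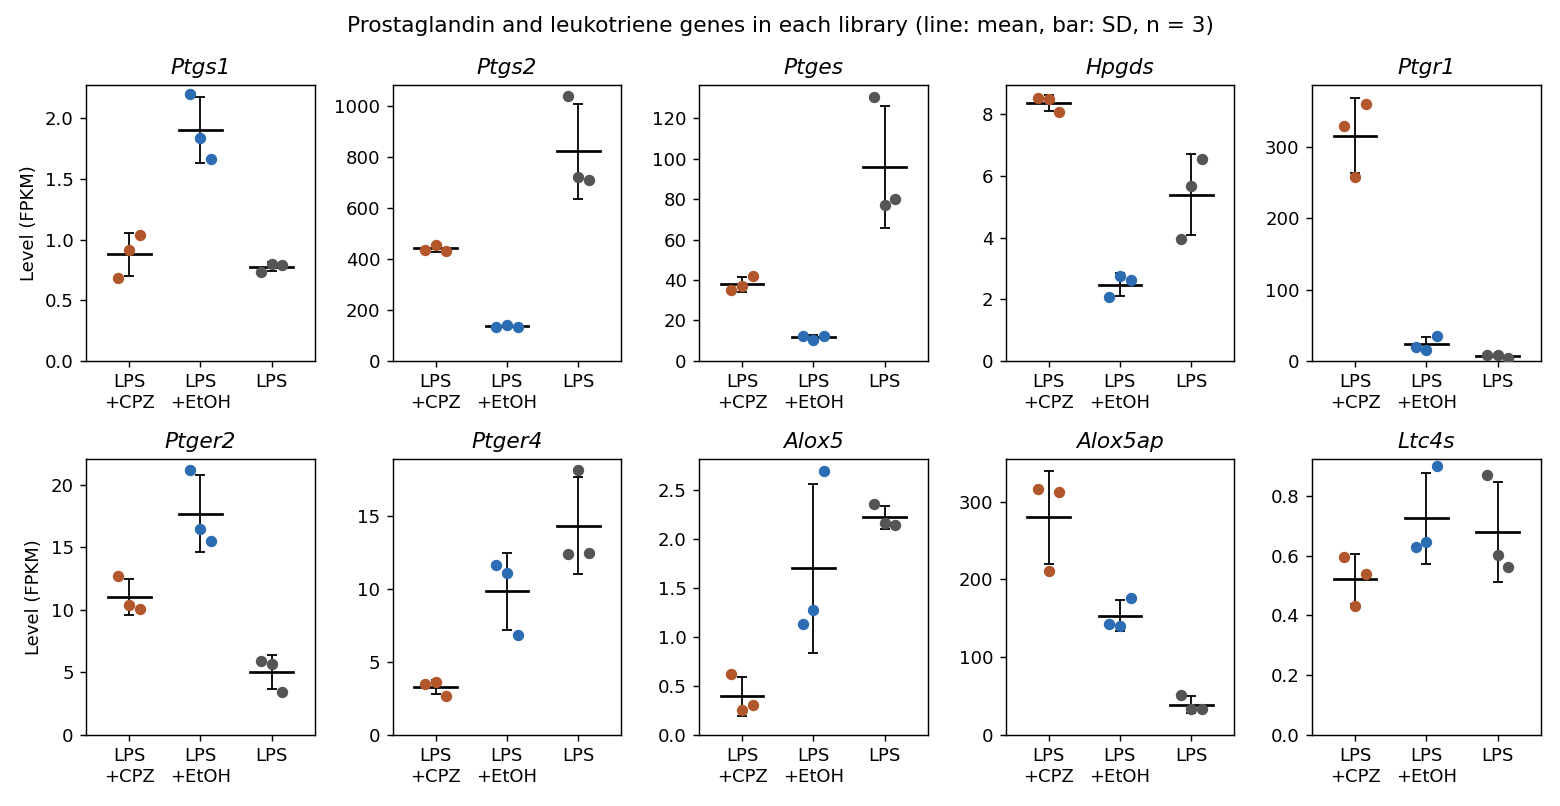
FPKM of each of the 10 genes in every library (points) with the group mean ± SD (n = 3 libraries), 1 panel per gene, for LPS+CPZ, LPS+EtOH and LPS. Ptgr1 and Alox5ap are highest in LPS+CPZ, Ptgs2 and Ptges in LPS, and Ptger2 and Ptgs1 in LPS+EtOH.

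Among the 10 genes Ptgs2 and Ptges fell most in LPS+EtOH against LPS and moved in the same direction in every comparison, and Ptgr1 rose most in LPS+CPZ against LPS, so the stretch around the annotated start of each is shown, 250 bases before it to 50 after it, from RefSeq on GRCm38.p6. Sequences were matched by symbol for 9 of the 10 genes. Capitals mark matches, on either strand, to any of the motifs TATAAA (the TATA box), CACGTG (the E-box), TGACGT (a cAMP response element core), TGANTCA (AP-1), TTNNGNAA (C/EBP), TGACNNNGC (the antioxidant response element), the heat shock element and the kappaB motif. Ptgs2 lies at chr1:150099781-150100080 on the plus strand, Ptges at chr2:30903248-30903547 on the minus strand and Ptgr1 at chr4:58987029-58987328 on the minus strand.
Ptgs2: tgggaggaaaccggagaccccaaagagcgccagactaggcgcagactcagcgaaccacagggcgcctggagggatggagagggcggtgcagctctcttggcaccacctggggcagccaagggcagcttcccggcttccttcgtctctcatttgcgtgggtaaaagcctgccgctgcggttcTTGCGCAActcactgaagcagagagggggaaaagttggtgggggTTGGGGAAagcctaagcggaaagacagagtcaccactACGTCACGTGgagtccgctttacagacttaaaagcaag
Ptges: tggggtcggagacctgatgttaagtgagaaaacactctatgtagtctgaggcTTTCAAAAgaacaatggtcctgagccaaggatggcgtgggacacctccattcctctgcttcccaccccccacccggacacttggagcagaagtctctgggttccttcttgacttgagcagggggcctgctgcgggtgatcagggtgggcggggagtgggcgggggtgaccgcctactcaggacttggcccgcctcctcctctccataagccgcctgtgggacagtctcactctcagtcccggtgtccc
Ptgr1: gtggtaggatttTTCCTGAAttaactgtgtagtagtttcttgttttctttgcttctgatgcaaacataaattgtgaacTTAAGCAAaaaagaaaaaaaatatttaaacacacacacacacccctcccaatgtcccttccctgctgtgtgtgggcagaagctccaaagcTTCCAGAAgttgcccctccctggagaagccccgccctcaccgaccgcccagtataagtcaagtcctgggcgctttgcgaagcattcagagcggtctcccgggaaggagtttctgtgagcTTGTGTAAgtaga
In Ptgs2 an E-box letter string and a cAMP response element core overlap within the capitals ACGTCACGTG, and Ptgs2 was the only one of the 9 sequences with either motif. Both lie after the annotated start, the core 12 to 17 and the E-box string 16 to 21 bases from the first base of the gene. CACGTG was present in 7.15% and TGACGT in 7.51% of the 32851 RefSeq promoter windows. The remaining capitals in all 3 sequences are TTNNGNAA, which was found in 5 of the 9 members (Hpgds, Ptger2, Ptges, Ptgr1 and Ptgs2) and in 40.7% of all windows. The letters of the other 5 motifs were not found in these windows, with shares over all windows of 13.6% for TATAAA, 7.81% for TGANTCA, 12.4% for TGACNNNGC, 0.603% for the heat shock element and 4.51% for the kappaB motif. Such matches describe letters and not bound sites.

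Ptgs2 (ENSMUSG00000032487), the gene of inducible cyclooxygenase, was among the more strongly expressed genes of the branch in all groups and lowest in cells given ethanol. It stood at 436, 456 and 431 FPKM in LPS+CPZ, 133, 142 and 134 FPKM in LPS+EtOH, and 1037, 721 and 708 FPKM in LPS libraries. The groups did not overlap, and the highest of the LPS libraries lay well above the other two. The log2 change was -0.87 ± 0.16 (SE, limma adjusted p = 0.000593) in LPS+CPZ against LPS and -2.56 ± 0.16 (adjusted p = 1.64e-07) in LPS+EtOH against LPS. Between the treated groups Ptgs2 was higher in LPS+CPZ than in LPS+EtOH by 1.68 ± 0.16 (adjusted p = 6.91e-06). All 3 calls held under median-ratio scaling, with smaller changes of -0.55, -1.46 and 0.91.

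Ptges (ENSMUSG00000050737), which encodes the inducible microsomal prostaglandin E synthase, followed the same order. Its values were 34.9, 36.8 and 42.1 FPKM in LPS+CPZ, 12.2, 10.4 and 12.5 FPKM in LPS+EtOH, and 131, 77.2 and 80.0 FPKM in LPS libraries. No group overlapped another, and replicate 1 of LPS was again the highest. Ptges changed by -1.28 ± 0.19 (limma adjusted p = 0.000167) in LPS+CPZ against LPS, by -2.89 ± 0.19 (adjusted p = 2.35e-07) in LPS+EtOH against LPS and by 1.61 ± 0.19 (adjusted p = 2.91e-05) in LPS+CPZ against LPS+EtOH. Median-ratio scaling gave -0.96, -1.84 and 0.88, all called. The processed pseudogene Gm13400, which overlaps Ptges on the same strand, was lowest in LPS, at 10.8 to 14.7 FPKM in LPS+CPZ, 6.28 to 8.21 FPKM in LPS+EtOH and 2.13 to 4.2 FPKM in LPS, so the division of reads between them is uncertain.

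The ratio of Ptges to Ptgs2 within a library does not depend on the scaling between libraries. It was 0.0800, 0.0808 and 0.0977 in LPS+CPZ, 0.0917, 0.0727 and 0.0935 in LPS+EtOH, against 0.126, 0.107 and 0.113 in LPS libraries. The treated groups overlapped each other and both lay below LPS. This ratio rests on the division of reads between Ptges and Gm13400, which is uncertain. The difference in log2 ratio was -0.42 in LPS+CPZ against LPS and -0.43 in LPS+EtOH against LPS, each with an exact permutation p of 0.1, the smallest that 3 against 3 libraries allow. Between LPS+CPZ and LPS+EtOH it differed by 0.0056 (exact permutation p = 1). There were 21 such ratio comparisons in all, and an exact permutation p of 0.1 became 0.117 after Benjamini-Hochberg adjustment over them.

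Ptgs1 (ENSMUSG00000047250), the constitutive cyclooxygenase gene, was weakly expressed and highest in cells given ethanol. It was at 0.682, 0.914 and 1.04 FPKM in LPS+CPZ, 2.20, 1.84 and 1.66 FPKM in LPS+EtOH, and 0.735, 0.800 and 0.792 FPKM in LPS libraries. All LPS+EtOH libraries exceeded all others, and the LPS+CPZ and LPS libraries overlapped. Ptgs1 reached the filter through the LPS+EtOH libraries and 1 LPS+CPZ library, so a difference between LPS+EtOH and LPS was built into its being tested. Its log2 change was 0.08 ± 0.11 (limma adjusted p = 0.559) in LPS+CPZ against LPS, 0.70 ± 0.11 (adjusted p = 0.000125) in LPS+EtOH against LPS and -0.63 ± 0.11 (adjusted p = 0.000425) in LPS+CPZ against LPS+EtOH. Median-ratio scaling gave 0.19, 1.33 and -1.13 with the same calls.

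The balance of the 2 cyclooxygenase transcripts therefore stood furthest towards the inducible form in LPS alone. The Ptgs2 to Ptgs1 ratio was 639, 499 and 416 in LPS+CPZ, 60.6, 77.5 and 80.6 in LPS+EtOH, against 1411, 901 and 894 in LPS libraries. No library of one group overlapped another group. The ratio was 0.489 times that of LPS in LPS+CPZ and 0.0694 times that of LPS in LPS+EtOH, and it was 7.05 times higher in LPS+CPZ than in LPS+EtOH (exact permutation p = 0.1 for each).

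Hpgds (ENSMUSG00000029919), whose product is the haematopoietic prostaglandin D synthase, moved in opposite directions in the treated groups. Its values were 8.53, 8.51 and 8.07 FPKM in LPS+CPZ, 2.06, 2.75 and 2.61 FPKM in LPS+EtOH, and 3.95, 5.69 and 6.54 FPKM in LPS libraries. LPS+CPZ lay above and LPS+EtOH below every LPS library. Hpgds rose by 0.57 ± 0.16 (limma adjusted p = 0.00779) in LPS+CPZ against LPS, fell by 0.86 ± 0.16 on the log2 scale (adjusted p = 0.000378) in LPS+EtOH against LPS, and was 1.44 ± 0.16 higher in LPS+CPZ than in LPS+EtOH (adjusted p = 1.81e-05). The fall with ethanol was about that of the median gene and was lost under median-ratio scaling, at -0.01 (adjusted p = 0.972). The rise in LPS+CPZ against LPS was lost when globin genes were left out, at 0.28 (adjusted p = 0.191). The difference between LPS+CPZ and LPS+EtOH stayed called under median-ratio scaling, at 0.83. The processed pseudogene Gm17147 overlaps Hpgds on the opposite strand. Gm17147 was at 1.43 to 2.12 FPKM in LPS+CPZ, 0.187 to 0.359 FPKM in LPS+EtOH and 0.741 to 1 FPKM in LPS.

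As a share of the prostaglandin E synthase transcript, Hpgds was at 0.245, 0.231 and 0.192 in LPS+CPZ, 0.168, 0.265 and 0.208 in LPS+EtOH, against 0.0303, 0.0737 and 0.0818 in LPS libraries. Both treated groups lay above LPS, by 3.90-fold in LPS+CPZ and 3.71-fold in LPS+EtOH (exact permutation p = 0.1 for each), and overlapped each other (p = 0.8, exact permutation test). This share also rests on the uncertain division of reads between Ptges and Gm13400. Mast cells are known to express Hpgds strongly, and the 11 mast cell markers summed to 25.8 to 52.7 FPKM in LPS+CPZ, 208 to 282 FPKM in LPS+EtOH (with Ms4a2 at 0 in all 3 libraries) and 181 to 215 FPKM in LPS. In LPS+EtOH and LPS most of that sum was Hdc, the histidine decarboxylase gene, at 12.1 FPKM on average in LPS+CPZ, 198 FPKM in LPS+EtOH and 116 FPKM in LPS. Without Hdc, left out after its values were seen, the sum was 14.6 to 38.1 FPKM in LPS+CPZ, 25.5 to 70.1 FPKM in LPS+EtOH and 54.1 to 102 FPKM in LPS. The part of mast cells in the Hpgds values was not tested.

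Ptgr1 (ENSMUSG00000028378), prostaglandin reductase 1, which inactivates leukotriene B4 and reduces 15-keto-prostaglandins, had the largest change of the 10 genes. It was at 329, 258 and 361 FPKM in LPS+CPZ, 19.7, 15.2 and 34.7 FPKM in LPS+EtOH, and 7.74, 7.87 and 4.48 FPKM in LPS libraries. The 3 groups were fully separated, with LPS+CPZ far above the others and LPS+EtOH above LPS. The log2 change was 5.38 ± 0.28 (limma adjusted p = 1.88e-07) in LPS+CPZ against LPS, 1.60 ± 0.28 (adjusted p = 0.000319) in LPS+EtOH against LPS and 3.78 ± 0.28 (adjusted p = 1.91e-06) in LPS+CPZ against LPS+EtOH. Median-ratio scaling left all 3 called, at 5.63, 2.6 and 3.03.

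The tested genes whose profiles over the 9 libraries were most like that of Ptgr1, by the root mean square difference of centred log2 values among 10015 candidates, were Egln3 at 0.443, Prdx1 at 0.605 and Bnip3 at 0.666. Egln3, a prolyl hydroxylase gene, averaged 77.8 ± 17.8 FPKM in LPS+CPZ, 5.73 ± 0.53 FPKM in LPS+EtOH and 2.06 ± 0.94 FPKM in LPS (SD, n = 3). Prdx1, which encodes the antioxidant enzyme peroxiredoxin 1, averaged 2293 ± 409 FPKM in LPS+CPZ, 277 ± 54.1 FPKM in LPS+EtOH and 146 ± 25.3 FPKM in LPS. Bnip3, a mitophagy gene, averaged 107 ± 13.1 FPKM in LPS+CPZ, 2.47 ± 0.79 FPKM in LPS+EtOH and 1.78 ± 0.50 FPKM in LPS. All 3 shared the high level in LPS+CPZ. The nearest genes of Ptgs2 were Mtdh at 0.138, Dnajc3 at 0.153 and Gm2a at 0.156. Those of Ptgs1 were Nfyb at 0.057, Ip6k2 at 0.09 and Mir5129 at 0.099. This difference grows with the size of a gene's own changes, so its values cannot be compared between Ptgr1 and the cyclooxygenases. Dnajc3, an endoplasmic reticulum co-chaperone gene, averaged 6.83 ± 0.58 FPKM in LPS+CPZ, 1.39 ± 0.13 FPKM in LPS+EtOH and 11.6 ± 0.97 FPKM in LPS.

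**Figure D3:**
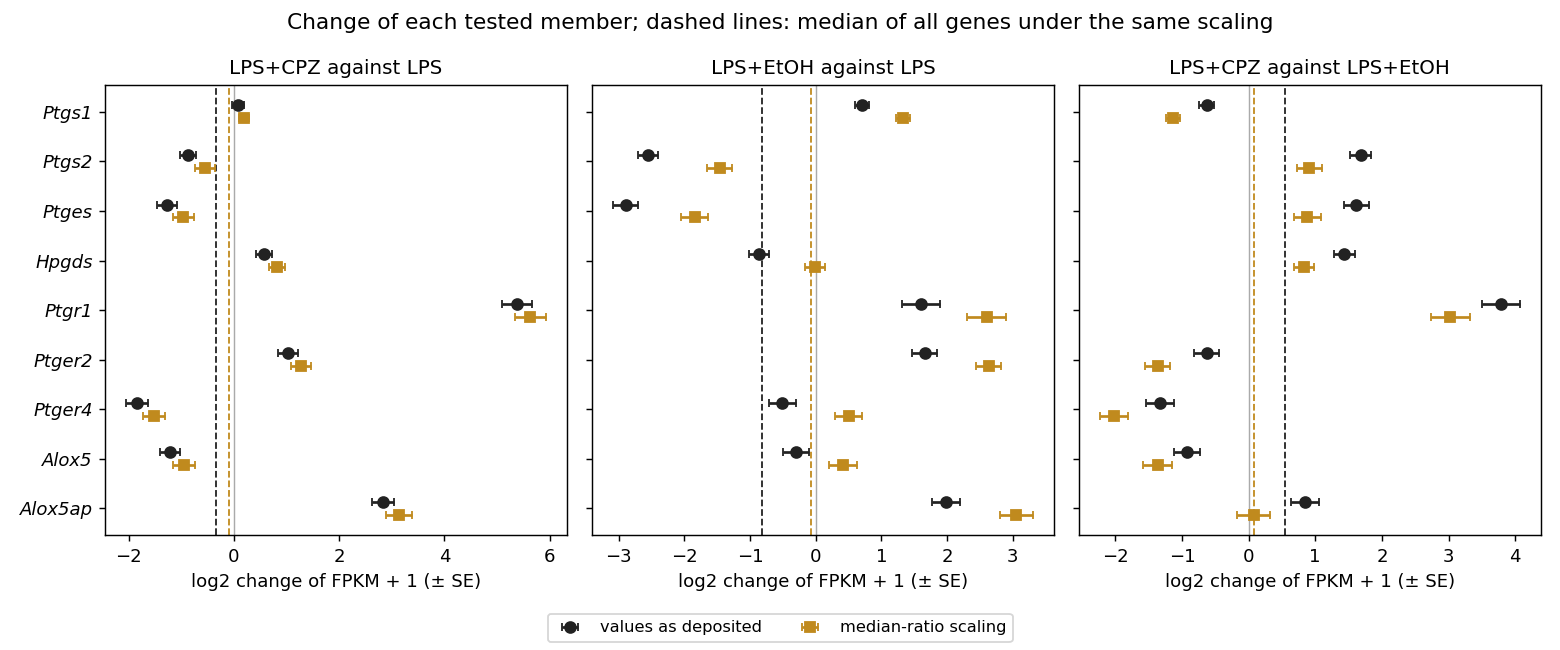
Log2 change of FPKM + 1 (± SE, limma over 9 libraries) of the 9 tested genes in LPS+CPZ against LPS, LPS+EtOH against LPS and LPS+CPZ against LPS+EtOH, as deposited (black circles) and after median-ratio scaling (ochre squares), with the median of all genes as dashed lines. Ptgr1 stands apart at 5.38 in LPS+CPZ against LPS, and Ptger4 and Alox5 lie on either side of 0 under the 2 scalings in LPS+EtOH against LPS.

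The 2 receptor genes for prostaglandin E2 measured here, whose products both couple to cAMP production, moved apart. Ptger2 (ENSMUSG00000037759), which encodes EP2, was at 12.7, 10.4 and 10.1 FPKM in LPS+CPZ, 21.2, 16.4 and 15.5 FPKM in LPS+EtOH, and 5.91, 5.63 and 3.43 FPKM in LPS libraries. The groups did not overlap, and LPS+EtOH was the highest. Ptger2 rose by 1.03 ± 0.19 (limma adjusted p = 0.000636) in LPS+CPZ against LPS and by 1.66 ± 0.19 (adjusted p = 9.81e-06) in LPS+EtOH against LPS, and was lower in LPS+CPZ than in LPS+EtOH, at -0.63 ± 0.19 (adjusted p = 0.0107). Median-ratio scaling kept these calls, at 1.27, 2.63 and -1.36. The antisense gene Gm17173, which overlaps Ptger2, was at 1.29 to 1.41 FPKM in LPS+CPZ, 5.93 to 7.30 FPKM in LPS+EtOH and 1.18 to 2.74 FPKM in LPS, and whether strand was used in the counting is not given in the sources used here.

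Ptger4 (ENSMUSG00000039942), which encodes EP4, was at 3.49, 3.60 and 2.69 FPKM in LPS+CPZ, 11.7, 11.1 and 6.83 FPKM in LPS+EtOH, and 12.4, 18.2 and 12.5 FPKM in LPS libraries. LPS+CPZ lay clearly below the rest, while the LPS+EtOH and LPS libraries came close without overlapping. Ptger4 fell by 1.84 ± 0.21 on the log2 scale (limma adjusted p = 2.56e-05) in LPS+CPZ against LPS and was lower in LPS+CPZ than in LPS+EtOH, at -1.33 ± 0.21 (adjusted p = 0.00019), or -1.51 and -2.02 under median-ratio scaling. In LPS+EtOH against LPS its change was -0.51 ± 0.21 (adjusted p = 0.0397), a call whose direction turned to 0.50 (adjusted p = 0.0471) under median-ratio scaling. The same call was lost without replicate 3 of LPS+EtOH, at -0.29 (adjusted p = 0.166), and without replicate 2 of LPS, at -0.34 (adjusted p = 0.16). The protein-coding gene Ttc33 overlaps Ptger4 on the opposite strand and was at 5.69 to 9.29 FPKM in LPS+CPZ, 1.22 to 1.70 FPKM in LPS+EtOH and 5.11 to 6.48 FPKM in LPS.

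The order of the 2 receptor transcripts turned over between the groups, which does not depend on the scaling of libraries. The Ptger4 to Ptger2 ratio was 0.275, 0.347 and 0.267 in LPS+CPZ, 0.551, 0.675 and 0.441 in LPS+EtOH, against 2.10, 3.23 and 3.65 in LPS libraries. Ptger4 was thus the lower transcript in all 6 treated libraries and the higher one in all 3 LPS libraries. The ratio was 0.101 times that of LPS in LPS+CPZ and 0.188 times that of LPS in LPS+EtOH, and 0.537 times that of LPS+EtOH in LPS+CPZ (exact permutation p = 0.1 for each).

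**Figure D4:**
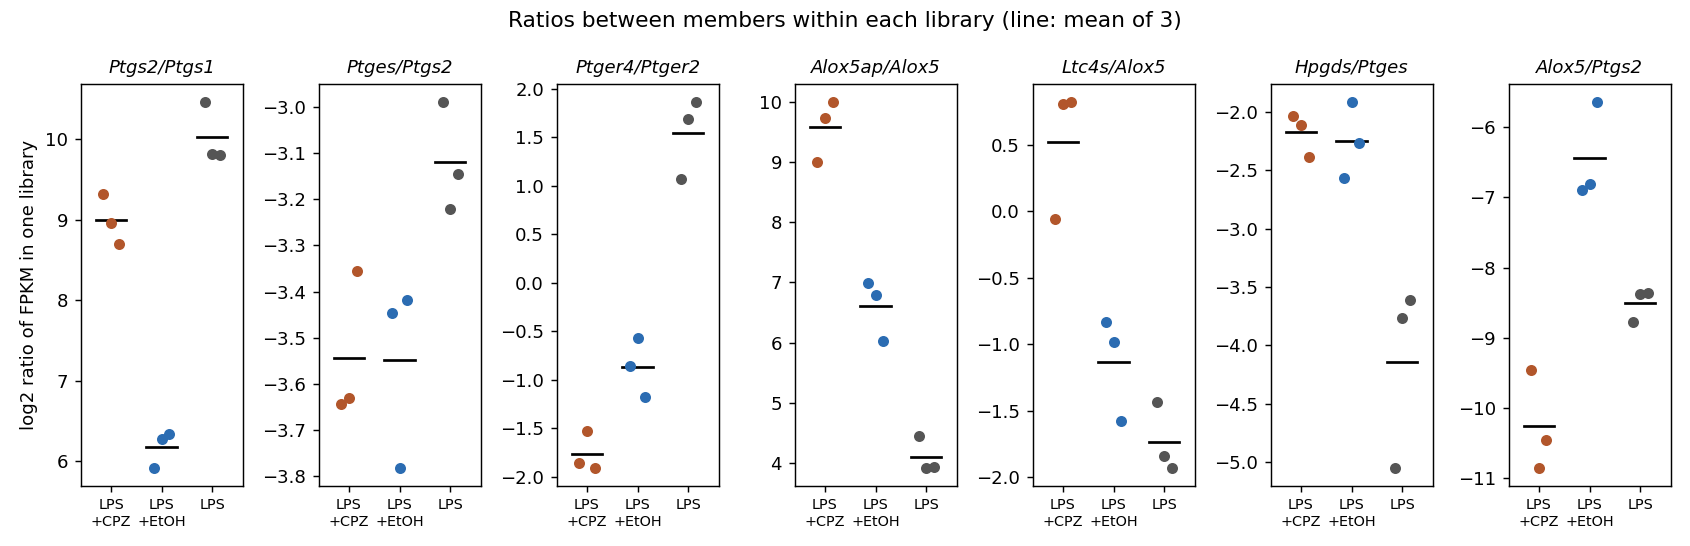
Ratio of FPKM of paired pathway genes within each library, on a log2 axis, for LPS+CPZ, LPS+EtOH and LPS (points are libraries, horizontal lines are group means of the log2 ratio). Ptger4 to Ptger2 lies above 1 only in LPS libraries, and Alox5ap to Alox5 reaches 511 to 1025 in LPS+CPZ.

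In the leukotriene branch the gene of the helper protein rose and that of the enzyme it presents arachidonic acid to did not. Alox5ap (ENSMUSG00000060063), which encodes the 5-lipoxygenase activating protein FLAP, was at 317, 211 and 313 FPKM in LPS+CPZ, 143, 140 and 176 FPKM in LPS+EtOH, and 51.0, 32.8 and 32.6 FPKM in LPS libraries. The groups were fully separated. Alox5ap rose by 2.83 ± 0.21 (limma adjusted p = 1.78e-06) in LPS+CPZ against LPS and by 1.98 ± 0.21 (adjusted p = 6.63e-06) in LPS+EtOH against LPS. It was 0.85 ± 0.21 higher in LPS+CPZ than in LPS+EtOH (adjusted p = 0.00403), a difference that median-ratio scaling reduced to 0.08 (adjusted p = 0.794). Gm19719, an antisense gene that overlaps Alox5ap, was at 3.44 to 3.84 FPKM in LPS+CPZ, 13.9 to 17.8 FPKM in LPS+EtOH and 0.797 to 2.08 FPKM in LPS. Neutrophils also express Alox5ap. Their marker sum given above was highest in LPS+EtOH. On average 12 of the 14 markers were highest in LPS+EtOH, 1 (Ly6g) in LPS+CPZ and 1 in LPS. The part of neutrophils in the Alox5ap values was not tested.

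Alox5 (ENSMUSG00000025701), which encodes 5-lipoxygenase, was weakly expressed throughout. It was at 0.621, 0.247 and 0.305 FPKM in LPS+CPZ, 1.12, 1.27 and 2.69 FPKM in LPS+EtOH, and 2.35, 2.16 and 2.14 FPKM in LPS libraries. LPS+CPZ lay below all other libraries, and replicate 3 of LPS+EtOH was above every LPS library while the other two were below. Alox5 passed the filter through the LPS+EtOH and LPS libraries alone, so a low level in LPS+CPZ was built into its being tested. It fell by 1.22 ± 0.19 on the log2 scale (limma adjusted p = 0.000256) in LPS+CPZ against LPS. Alox5 was also lower in LPS+CPZ than in LPS+EtOH, at -0.92 ± 0.19 (adjusted p = 0.0014). In LPS+EtOH against LPS the change of -0.30 ± 0.19 missed the threshold (adjusted p = 0.17, 95% interval -0.77 to 0.17). Without replicate 3 of LPS+EtOH it was -0.55 and called (adjusted p = 0.00406), and median-ratio scaling turned it to 0.42 (adjusted p = 0.097).

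Ltc4s (ENSMUSG00000020377), whose product makes leukotriene C4, was below the filter in every library. It was at 0.595, 0.432 and 0.539 FPKM in LPS+CPZ, 0.631, 0.645 and 0.902 FPKM in LPS+EtOH, and 0.872, 0.603 and 0.564 FPKM in LPS libraries. The LPS+CPZ libraries lay below all LPS+EtOH libraries and overlapped those of LPS. With no filter, over 33417 genes, its log2 changes were -0.14 in LPS+CPZ against LPS (limma adjusted p = 0.403), 0.04 in LPS+EtOH against LPS (adjusted p = 0.834) and -0.18 in LPS+CPZ against LPS+EtOH (adjusted p = 0.286), each with an SE of 0.11.

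The Alox5ap to Alox5 ratio was 511, 855 and 1025 in LPS+CPZ, 127, 110 and 65.4 in LPS+EtOH, against 21.7, 15.2 and 15.2 in LPS libraries. It was 44.7-fold higher in LPS+CPZ than in LPS, 5.68-fold higher in LPS+EtOH than in LPS and 7.87-fold higher in LPS+CPZ than in LPS+EtOH, with no overlap (exact permutation p = 0.1 for each). These are ratios of unadjusted FPKM, and Alox5 was under 1 FPKM in every LPS+CPZ library. With 1 FPKM added to both genes the log2 difference in LPS+CPZ against LPS was 4.05 in place of 5.48. In LPS+CPZ against LPS+EtOH the log2 ratio difference was 2.98. There the log2 changes with 1 FPKM added were 0.85 for Alox5ap and -0.92 for Alox5. Relative to Ptgs2, Alox5 was 0.298 times its LPS level in LPS+CPZ and 4.19 times its LPS level in LPS+EtOH. Neither comparison had overlapping libraries (exact permutation p = 0.1 for each). The LPS+CPZ value again rests on Alox5 under 1 FPKM. Its log2 ratio difference was -1.75, while with 1 FPKM added the log2 changes were -1.22 for Alox5 and -0.87 for Ptgs2. Ltc4s relative to Alox5 was 4.78-fold higher in LPS+CPZ than in LPS, a log2 difference of 2.26. Both genes were under 1 FPKM in every LPS+CPZ library. With 1 FPKM added, the log2 changes in LPS+CPZ against LPS were -0.14 for Ltc4s and -1.22 for Alox5. In LPS+EtOH the ratio was 1.52-fold higher than in LPS with overlapping libraries (exact permutation p = 0.2).

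Outside the 10 genes, 7 lists of the same pathway held 68 further genes of the table, of which 32 passed the filter. Of the 32, 14 were higher and 12 lower in LPS+CPZ against LPS, with a median change of -0.06 against -0.33 for all genes. In LPS+EtOH against LPS, 8 were higher and 16 lower, with a median of -0.51 against -0.82. The comparison of LPS+CPZ with LPS+EtOH had 19 higher and 4 lower, and the median of 0.55 was that of all genes. Median-ratio scaling gave 14 higher and 8 lower in LPS+CPZ against LPS, 14 higher and 11 lower in LPS+EtOH against LPS, and 13 higher and 9 lower in LPS+CPZ against LPS+EtOH. Beside these stand the shares of all genes called as deposited, 20.7% higher and 48.4% lower in LPS+CPZ against LPS. They were 19.0% higher and 64.6% lower in LPS+EtOH against LPS, and 61.4% higher and 15.2% lower in LPS+CPZ against LPS+EtOH. Under median-ratio scaling the shares were 27.6% and 34.1%, 37.8% and 42.1%, and 35.6% and 31.5%, in the same order.

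**Figure D5:**
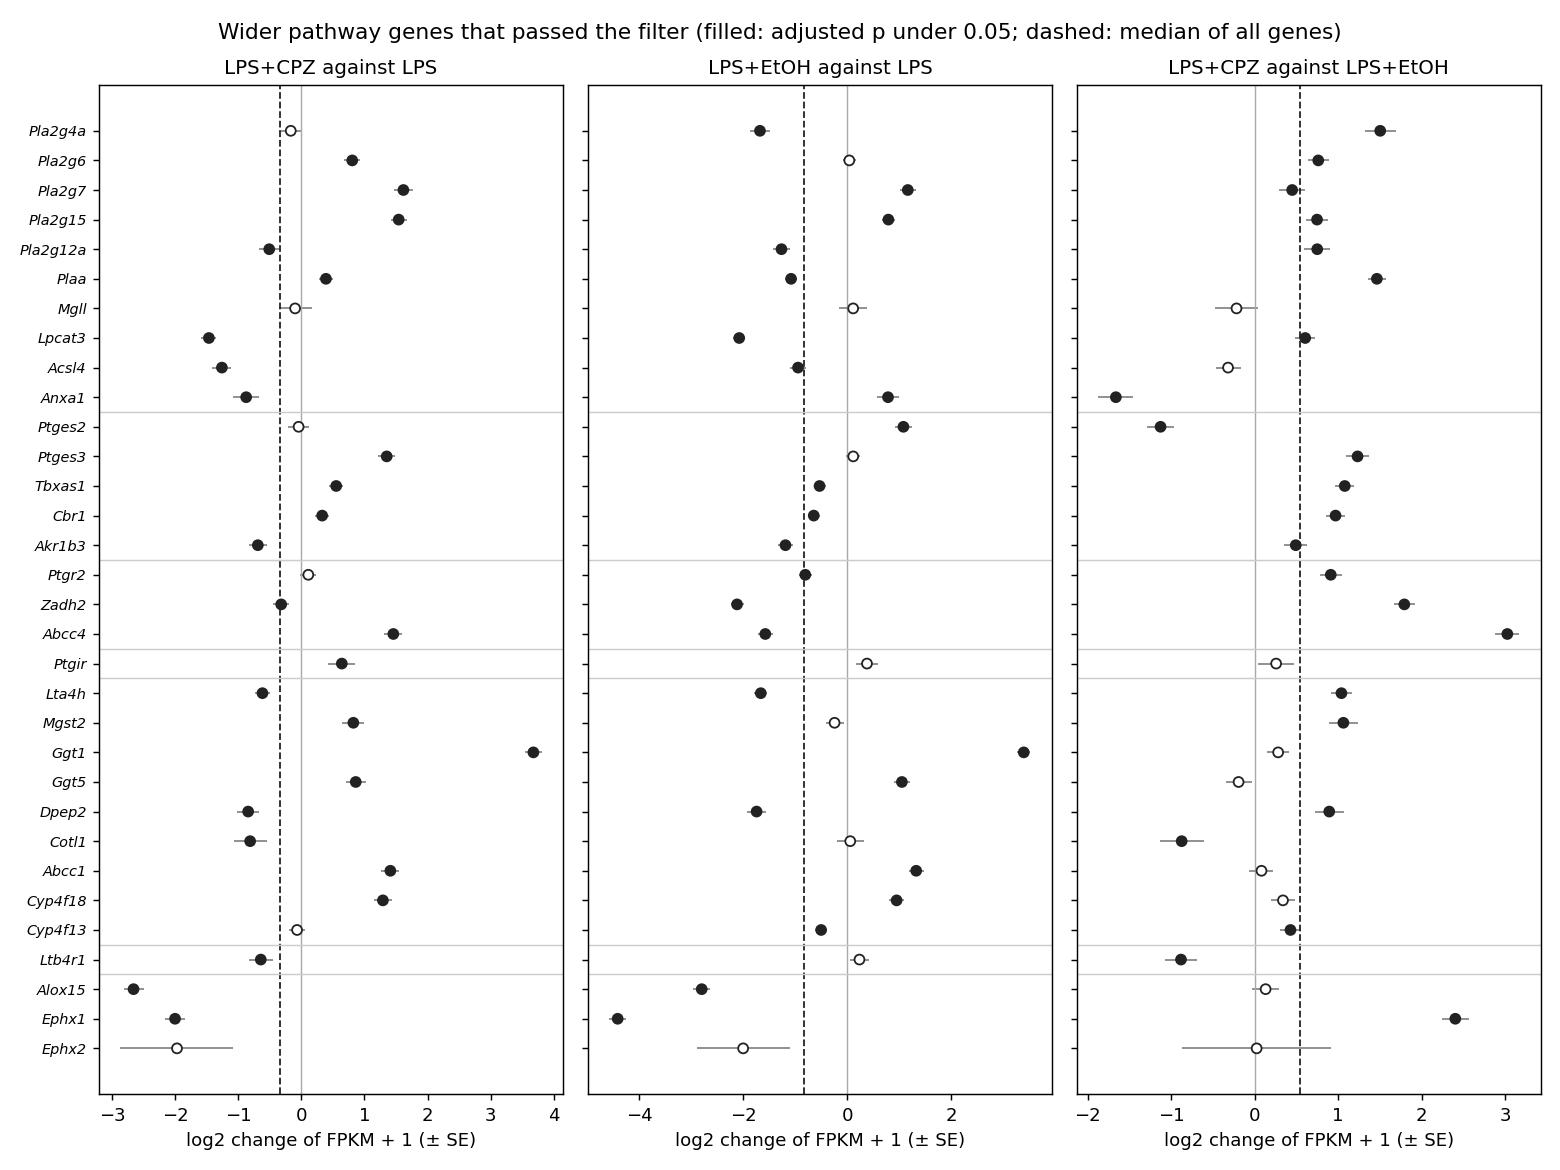
Log2 change of FPKM + 1 (± SE, limma over 9 libraries) of the 32 further pathway genes that passed the filter, separated by list, in the 3 comparisons, with filled points for an adjusted p under 0.05 and dashed lines for the median of all genes. Ggt1 is the highest of them against LPS in both treated groups, and Ephx1 the lowest in LPS+EtOH against LPS.

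Among 10 tested genes of arachidonate release, 4 were higher and 4 lower in LPS+CPZ against LPS (20.7% and 48.4% of all genes). In LPS+EtOH against LPS 3 were higher and 5 lower (19.0% and 64.6% of all genes). Under median-ratio scaling the ethanol count was 4 higher and 3 lower (37.8% and 42.1% of all genes). Pla2g4a, the cytosolic phospholipase A2 that releases arachidonic acid, averaged 5.33 ± 0.64 FPKM in LPS+CPZ, 1.25 ± 0.44 FPKM in LPS+EtOH and 6.19 ± 1.52 FPKM in LPS (SD, n = 3). It fell by 1.67 ± 0.18 on the log2 scale in LPS+EtOH against LPS (limma adjusted p = 7.73e-06) and changed by -0.17 ± 0.18 in LPS+CPZ against LPS (adjusted p = 0.431, 95% interval -0.62 to 0.28). Pla2g7, which hydrolyses platelet-activating factor, averaged 533 ± 57.7 FPKM in LPS+CPZ, 390 ± 51.7 FPKM in LPS+EtOH and 173 ± 21.3 FPKM in LPS. It rose against LPS in both treated groups, as did Pla2g15, a lysosomal phospholipase gene at 9.14 FPKM in LPS+CPZ, 5.08 FPKM in LPS+EtOH and 2.48 FPKM in LPS. Lpcat3 and Acsl4, which load arachidonic acid into phospholipids, fell against LPS in both treated groups as deposited. Lpcat3 averaged 2.56 FPKM in LPS+CPZ, 1.34 FPKM in LPS+EtOH and 8.88 FPKM in LPS, and Acsl4 averaged 10.5 FPKM in LPS+CPZ, 13.5 FPKM in LPS+EtOH and 26.6 FPKM in LPS, with the ethanol change of Acsl4 at 0.10 under median-ratio scaling. Anxa1, whose product annexin A1 is known as an inhibitor of phospholipase A2, moved in opposite directions. It changed by -0.88 ± 0.21 in LPS+CPZ against LPS (limma adjusted p = 0.00353) and by 0.79 ± 0.21 in LPS+EtOH against LPS (adjusted p = 0.00476), or -0.58 and 1.80 under median-ratio scaling. The ethanol call of Anxa1 was lost when globin genes were left out, at 0.42 (adjusted p = 0.108). Plaa, the phospholipase A2 activating protein gene, averaged 14.9 FPKM in LPS+CPZ, 4.79 FPKM in LPS+EtOH and 11.2 FPKM in LPS. Its ethanol change was -1.08 as deposited (limma adjusted p = 4.31e-06) and -0.11 under median-ratio scaling (adjusted p = 0.294).

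Among the other prostanoid synthases, 3 of 5 tested were higher and 1 lower in LPS+CPZ against LPS (20.7% and 48.4% of all genes). In LPS+EtOH against LPS 1 was higher and 3 lower (19.0% and 64.6% of all genes). The ethanol count was 2 higher and 1 lower under median-ratio scaling (37.8% and 42.1% of all genes). Ptges3, the cytosolic prostaglandin E synthase and HSP90 co-chaperone p23, averaged 169 ± 12.8 FPKM in LPS+CPZ, 71.1 ± 3.16 FPKM in LPS+EtOH and 65.9 ± 10.2 FPKM in LPS. It rose in LPS+CPZ against LPS by 1.35 ± 0.13 (limma adjusted p = 1.03e-05) and changed by 0.12 ± 0.13 in LPS+EtOH against LPS as deposited (adjusted p = 0.421), against 1.20 under median-ratio scaling. Of the breakdown and transport genes, all 3 tested (Abcc4, Zadh2 and Ptgr2) were lower in LPS+EtOH than in LPS, as were 64.6% of all genes. Ptgr2 averaged 1.20 FPKM in LPS+CPZ, 0.165 FPKM in LPS+EtOH and 1.05 FPKM in LPS. It passed the filter through the LPS+CPZ and LPS libraries alone, so a low level in LPS+EtOH was built into its being tested. The LPS+EtOH libraries had Abcc4 at 1.11, 0.731 and 0.919 FPKM. Abcc4, an exporter of prostaglandins, averaged 14.7 ± 2.18 FPKM in LPS+CPZ, 0.920 ± 0.190 FPKM in LPS+EtOH and 4.72 ± 0.77 FPKM in LPS, with log2 changes of 1.46 ± 0.14 and -1.57 ± 0.14 against LPS (limma adjusted p = 1.09e-05 and 2.11e-06). Zadh2, also known as prostaglandin reductase 3, averaged 4.85 FPKM in LPS+CPZ, 0.688 FPKM in LPS+EtOH and 6.31 FPKM in LPS, and changed by -2.11 ± 0.13 in LPS+EtOH against LPS (limma adjusted p = 1.35e-07), where Ptgr1 rose. Zadh2 passed the filter through the LPS+CPZ and LPS libraries alone, so a low level in LPS+EtOH was built into its being tested. In LPS+CPZ against LPS Zadh2 changed by -0.32 (limma adjusted p = 0.0415), a call lost under median-ratio scaling at -0.05 (adjusted p = 0.746). Ptgir, the prostacyclin receptor gene, was the only one of 8 other prostanoid receptor genes to pass the filter, at 10.02 ± 1.01 FPKM in LPS+CPZ, 8.35 ± 2.14 FPKM in LPS+EtOH and 6.25 ± 2.17 FPKM in LPS. Its change in LPS+EtOH against LPS was 0.38 as deposited (limma adjusted p = 0.123) and 1.34 under median-ratio scaling (adjusted p = 0.000309). The EP1 and EP3 genes Ptger1 and Ptger3, the thromboxane receptor gene Tbxa2r, the prostaglandin dehydrogenase gene Hpgd and Pparg were under it.

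Among the genes that make, convert, export or break down leukotrienes, 5 of 9 tested were higher and 3 lower in LPS+CPZ against LPS, and 4 were higher and 3 lower in LPS+EtOH against LPS. Of all genes 20.7% were higher and 48.4% lower with CPZ, and 19.0% were higher and 64.6% lower with ethanol. Under median-ratio scaling the list had 6 higher and 2 lower with ethanol (37.8% and 42.1% of all genes). Ggt1, gamma-glutamyl transferase, which turns leukotriene C4 into leukotriene D4, was at 18.3, 16.3 and 19.4 FPKM in LPS+CPZ, 15.4, 12.7 and 15.9 FPKM in LPS+EtOH, and 0.324, 0.534 and 0.604 FPKM in LPS libraries. Its log2 changes against LPS, 3.68 ± 0.13 in LPS+CPZ and 3.40 ± 0.13 in LPS+EtOH (limma adjusted p = 5.82e-08 and 2.87e-08), lay at percentile 99.7 of all genes in the first comparison and 99.8 in the second. Ggt1 passed the filter through the treated libraries alone, so a difference from LPS was built into its being tested. Abcc1, the exporter of leukotriene C4, averaged 118 ± 11.7 FPKM in LPS+CPZ, 112 ± 8.38 FPKM in LPS+EtOH and 44.2 ± 7.11 FPKM in LPS and rose against LPS in both. Cyp4f18, which hydroxylates leukotriene B4, averaged 112 ± 3.74 FPKM in LPS+CPZ, 89.2 ± 14.8 FPKM in LPS+EtOH and 45.4 ± 5.84 FPKM in LPS and also rose in both. The changes of Abcc1 and Cyp4f18 in LPS+EtOH against LPS were 1.33 and 0.95 as deposited and 2.41 and 2.03 under median-ratio scaling, and those of Pla2g7 were 1.17 and 2.26. Mgst2, a microsomal glutathione transferase that can make leukotriene C4, averaged 5.15 FPKM in LPS+CPZ, 1.997 FPKM in LPS+EtOH and 2.49 FPKM in LPS and rose in LPS+CPZ against LPS by 0.82 ± 0.17 (limma adjusted p = 0.00157). Its ethanol change was -0.24 as deposited (adjusted p = 0.214 by limma) and 0.51 under median-ratio scaling (adjusted p = 0.0224). Cotl1, whose product binds 5-lipoxygenase, averaged 45.6 ± 4.22 FPKM in LPS+CPZ, 86.9 ± 28.9 FPKM in LPS+EtOH and 83.7 ± 26.4 FPKM in LPS. Its changes against LPS were -0.81 in LPS+CPZ (limma adjusted p = 0.0181) and 0.06 in LPS+EtOH (adjusted p = 0.834), and under median-ratio scaling -0.49 (adjusted p = 0.11) and 1.15 (adjusted p = 0.00168). Lta4h, the leukotriene B4 synthase gene, which was singled out after its values were seen, averaged 2.69 ± 0.23 FPKM in LPS+CPZ, 0.798 ± 0.198 FPKM in LPS+EtOH and 4.66 ± 0.50 FPKM in LPS. It changed by -0.62 ± 0.12 in LPS+CPZ against LPS and by -1.66 ± 0.12 in LPS+EtOH against LPS (limma adjusted p = 0.00107 and 4.44e-07). The cysteinyl leukotriene receptor genes Cysltr1 and Cysltr2 and Ltb4r2 were under the filter, and Pla2g2e and Gpr17 were listed at 0 in every library. Of 6 leukotriene receptor genes only Ltb4r1 was tested, averaging 1.40 FPKM in LPS+CPZ, 3.47 FPKM in LPS+EtOH and 2.80 FPKM in LPS. Against LPS Ltb4r1 changed by -0.64 in LPS+CPZ (limma adjusted p = 0.0117) and by 0.24 in LPS+EtOH (adjusted p = 0.264). Under median-ratio scaling these were -0.40, not called, and 1.07 (adjusted p = 0.000558). Ltb4r1 was lower in LPS+CPZ than in LPS+EtOH, at -0.88 (limma adjusted p = 0.00168).

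Among the other lipoxygenases and the epoxide hydrolases, Alox15, Ephx1 and Ephx2 were tested. Alox15, the 12/15-lipoxygenase gene of resident peritoneal macrophages, was at 0.181, 0.162 and 0.729 FPKM in LPS+CPZ, 0.0867, 0.228 and 0.350 FPKM in LPS+EtOH, and 6.96, 7.77 and 7.60 FPKM in LPS libraries. Alox15 passed the filter through the LPS libraries alone, so a fall in the treated groups was built into its being tested. It changed by -2.66 ± 0.16 in LPS+CPZ against LPS and by -2.79 ± 0.16 in LPS+EtOH against LPS (limma adjusted p = 3.85e-07 and 1.06e-07). Ephx1, microsomal epoxide hydrolase, averaged 7.26 ± 1.23 FPKM in LPS+CPZ, 0.555 ± 0.171 FPKM in LPS+EtOH and 32.2 ± 5.61 FPKM in LPS. Ephx1 passed the filter through the LPS+CPZ and LPS libraries alone, so a low level in LPS+EtOH was built into its being tested. Its changes were -2.003 ± 0.16 in LPS+CPZ against LPS and -4.41 ± 0.16 in LPS+EtOH against LPS (limma adjusted p = 2.5e-06 and 2.65e-08). Ephx2, soluble epoxide hydrolase, differed within every group, at 4.57, 0.359 and 0.387 FPKM in LPS+CPZ, 4.54, 0.369 and 0.316 FPKM in LPS+EtOH, and 29.4, 7.82 and 1.37 FPKM in LPS libraries. Replicate 1 was the highest of each group, and neither change against LPS passed the test (limma adjusted p = 0.0717 in LPS+CPZ and 0.0584 in LPS+EtOH). The 9 markers of large peritoneal macrophages, the cells known for Alox15, summed to 27.4 to 42.0 FPKM in LPS+CPZ, 55.1 to 60.0 FPKM in LPS+EtOH and 113 to 151 FPKM in LPS. Most of the LPS+EtOH sum was Lrg1, and without it, left out after its values were seen, the other 8 summed to 23.4 to 38.4 FPKM in LPS+CPZ, 4.17 to 6.32 FPKM in LPS+EtOH and 102 to 133 FPKM in LPS, which turned the order of the treated groups. Their part in the fall of Alox15 was not tested.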

How the data were processed

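Pooled RNA was made into 9 strand-specific TruSeq libraries and sequenced on an Illumina NovaSeq, per the labels' protocols. The authors deposited 1 table of FPKM values by gene, in which fragments are scaled to transcript length and to the library's mapped fragments. FastQC 0.11.2, STAR and StringTie are named by the submitters' processing notes, the aligner and StringTie without versions, as is the human build hg38. The gene IDs are mouse, and GENCODE M21 held 55154 of the 55335, so the table was used without coordinates. Whole fragments could not be recovered, because multiples of the commonest step, to within 2%, made up just 22.6 to 33.5% of the low values in a library, and depth is therefore unknown. No counting error is given. All value columns were matched to samples by name.

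Values were tested with limma 3.58.1 in R 4.3.3 (log2 of FPKM + 1, at least 1 FPKM in at least 3 libraries, trend, all 9 libraries, 6 residual degrees of freedom, two-sided, Benjamini-Hochberg over 11721 genes). Ratios of 2 genes within a library were compared by two-sided exact permutation tests. The test was tried on simulated data first. Promoter windows came from RefSeq on GRCm38.p6. The 10 members and the 7 lists were chosen with earlier results of these data known. Named genes are all members, pathway genes with a group mean of at least 5 FPKM, and the 3 nearest profiles of Ptgs2, Ptgs1 and Ptgr1. Lta4h, Ltb4r1 and Ptgr2, below that mean, were named after their values were seen. One listed name, Ptgr3, was a second name of Zadh2, and Prxl2b was found under its older symbol Fam213b. Alternatives were pseudocounts of 0.1 and 5, no filter and a filter of 5 FPKM, scaling by quantiles, by median ratio and to TPM, leaving out 4 globin genes, eBayes without trend and robust, a fit to the compared groups alone, a block for replicate number, and leaving out each library. Plots and preparation used Python 3.11.15, numpy 2.4.6, pandas 2.3.3, scipy 1.17.1 and matplotlib 3.10.9.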

Additional observations from a re-analysis of the deposited data

How the results depend on the processing

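Over all alternatives, values of the tested members kept direction and side of the threshold 546 times, turned 6 times, lost the call 7 times and gained it 2 times. Median-ratio and quantile scaling, which remove most of the shared shift of all genes, moved the calls over all genes. In LPS+EtOH against LPS they gave 4435 and 4160 higher and 4936 and 4633 lower, and in LPS+CPZ against LPS+EtOH 4171 and 3844 higher and 3687 and 3144 lower, with 2 members lower under each in LPS+EtOH against LPS. The 5 FPKM filter, which tests fewer genes, gave 3096 lower in LPS+CPZ against LPS, 3770 lower in LPS+EtOH against LPS, 3764 higher in LPS+CPZ against LPS+EtOH, and 2 members lower in the last. In LPS+CPZ against LPS the direction turned for Ptgs1 without globin genes (-0.16), for Pla2g4a under median-ratio (0.10) and quantile scaling (0.20) and for Zadh2 under quantile scaling (0.0265). In LPS+EtOH against LPS it turned under median-ratio scaling for Ptger4 (0.50), Alox5 (0.42), Acsl4 (0.10) and Mgst2 (0.51). Quantile scaling turned Hpgds (0.10), Ptger4 (0.10), Alox5 (0.60, adjusted p = 0.0217 by limma), Mgst2 (0.68) and Cotl1 (-0.0167), TPM turned Cotl1 (-0.0484), and leaving out globin turned Ptges3 (-0.30) and Cotl1 (-0.36). In LPS+CPZ against LPS+EtOH median-ratio scaling turned Pla2g7 (-0.32), Ptgir (-0.45), Ggt1 (-0.45), Abcc1 (-0.69), Cyp4f18 (-0.43), Alox15 (-0.0339) and Ephx2 (-0.32). Quantile scaling turned Lpcat3 (-0.00610), Ptgir (-0.15), Alox15 (-0.33) and Ephx2 (-0.52). There the Ptges to Ptgs2 log2 ratio was -0.00219 and -0.0683 with pseudocounts of 0.1 and 1, and Hpgds to Ptges -0.18 with 1. The cause of each turn was not tested. Leaving out single libraries ranged from -0.23 to 0.24 for Cotl1 in LPS+EtOH against LPS, and in LPS+CPZ against LPS+EtOH from -0.0552 to 0.23 for Alox15, -0.65 to 0.71 for Ephx2, -0.11 to 0.0708 for Ptges to Ptgs2 and -0.0864 to 0.24 for Hpgds to Ptges. Ptger4 in LPS+EtOH against LPS also lost its call without the filter (adjusted p = 0.104 by limma) and with only the groups compared (0.0548). Replicate numbers are shared by the groups. After removal of group means, same-numbered libraries correlated at -0.00645 to 0.26 and differently numbered libraries at -0.204 to 0.127. Not every library correlated best with its own number. These values do not settle whether the numbers mark pairs, and the main fit did not take them as pairs. With the replicate block 4 members were higher and 4 lower in both comparisons with LPS, and 5 higher and 4 lower in LPS+CPZ against LPS+EtOH. FPKM carries no depth, so precision at low values such as those of Ltc4s, Alox5 and Ptgs1 is unknown.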
